A study of Homo sapiens with 2 samples.

Results

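Cell division needs the duplicated chromosomes to stay paired, attach to a bipolar spindle and separate only when every attachment is made. Cyclin B1 with its kinase partner CDK1 drives entry into mitosis, the spindle checkpoint holds the cell while kinetochores lack microtubules, and the anaphase promoting complex and separase then release the cohesin rings that keep sister chromatids together. Circular RNAs (circRNAs) form when the 3′ end of an exon is spliced back to the 5′ end of the same or an earlier exon, and reads that cross this back-splice junction count them. A circRNA is a product of its host gene's transcripts, and its level need not follow that of the mRNA.

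The circRNAs described here came from 10 host genes of mitosis: the spindle checkpoint gene MAD1L1, the mitotic entry genes CCNB1 and CDC25A, the mitotic kinase gene AURKA, the separase gene ESPL1, ANAPC7 of the anaphase promoting complex, the cohesin genes SMC3 and PDS5A, and the centrosome genes PCNT and CEP128. Every circRNA whose host field held exactly 1 of these symbols was taken, which gave 20 of the 1485 circRNAs of the deposited table. RNA of SW620, an established human colorectal cancer cell line, was depleted of rRNA and digested with RNase R, which removes linear RNA. There was 1 library of cells that received HD-SB, a combination of the herbs Hedyotis diffusa and Sculellaria barbata as the labels spell them, at 1 mg/mL for 24 h, and 1 control library, for which the labels name no vehicle. With 1 library per group no value has a replicate error and no test was possible.

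The HD-SB library listed 11570 back-splice reads on 1475 circRNAs, while the control library listed 91 reads on 32 circRNAs, 127 times fewer reads. The smallest value listed in either library was 2 reads. Among 18 intestinal epithelial marker genes, EPCAM (20 reads), VIL1 (18 reads) and EPHB2 (16 reads) had circRNAs in HD-SB. LCK (9 reads) was the one host among 13 leukocyte marker genes. The 10 fibroblast and smooth muscle marker genes and 7 endothelial marker genes had none. None of these markers had a listed control read. KRT8, KRT18, KRT20 and CDX2 had no listed circRNA in either library, so the cell type can be checked only in part.

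The junction sequences below show which exons are joined in leading circRNAs and where alternative circles of 1 gene use the same exon end. Each was read from GENCODE 29 transcripts (GRCh38), not from sequencing reads, after the exons had been found by the span of the circRNA. The last 15 bases of the downstream exon stand in lower case and the first 15 bases of the upstream exon in capitals, 5′ to 3′ on the strand of the gene.
CCNB1 exon 7 to exon 6: gataatggtgaatggAATAATTGTGTGCCC
SMC3 exon 20 to exon 19: accttcatgcctaagGTGACCAAGTCAGCC
PCNT exon 8 to exon 7: gaaaaacagctggagACCCTGAAGGAAGAT
AURKA exon 6 to exon 4: cagagaactgctactAAAATAATCCTGAGG
AURKA exon 6 to exon 3: cagagaactgctactGCTACAGCTCCAGTT
CDC25A exon 9 to exon 7: gagaaggcccatgagCTTTCCTCAAATGAA
CDC25A exon 10 to exon 7: ggagacttctccaagCTTTCCTCAAATGAA
MAD1L1 exon 10 to exon 6: gggcctgagcatcagACCATCAACGCACTG
MAD1L1 exon 10 to exon 5: gggcctgagcatcagCGTGAGGTCGACCGC
MAD1L1 exon 16 to exon 14: cggcgagctctgcagGCTCAGCTGTCGCAG
MAD1L1 exon 17 to exon 14: ccaaggaggtggcagGCTCAGCTGTCGCAG
MAD1L1 exon 17 to exon 16: ccaaggaggtggcagGTTGAAGGTCGAGGA
MAD1L1 exon 18 to exon 17: tgcctcatcttcaagGGTGACTATGACCAG

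All 20 circRNAs were listed in HD-SB and none in the control. Together they held 195 HD-SB reads, 1.69% of the library (1.46 to 1.94, 95% Clopper-Pearson interval, which covers counting error only), and 0 listed control reads. Listing in HD-SB alone was the rule rather than the exception, since it held for 97.8% of the 1485 circRNAs. At its HD-SB share, the whole group would have brought 1.53 reads to the control library, spread over 20 circRNAs. The most abundant circRNA would have brought 0.244 reads and the least abundant 0.0157, where the smallest listing seen was 2 reads on 1 circRNA. A higher share in HD-SB than in the control was therefore not detectable with 91 listed control reads for any of the 20.

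**Figure D1:**
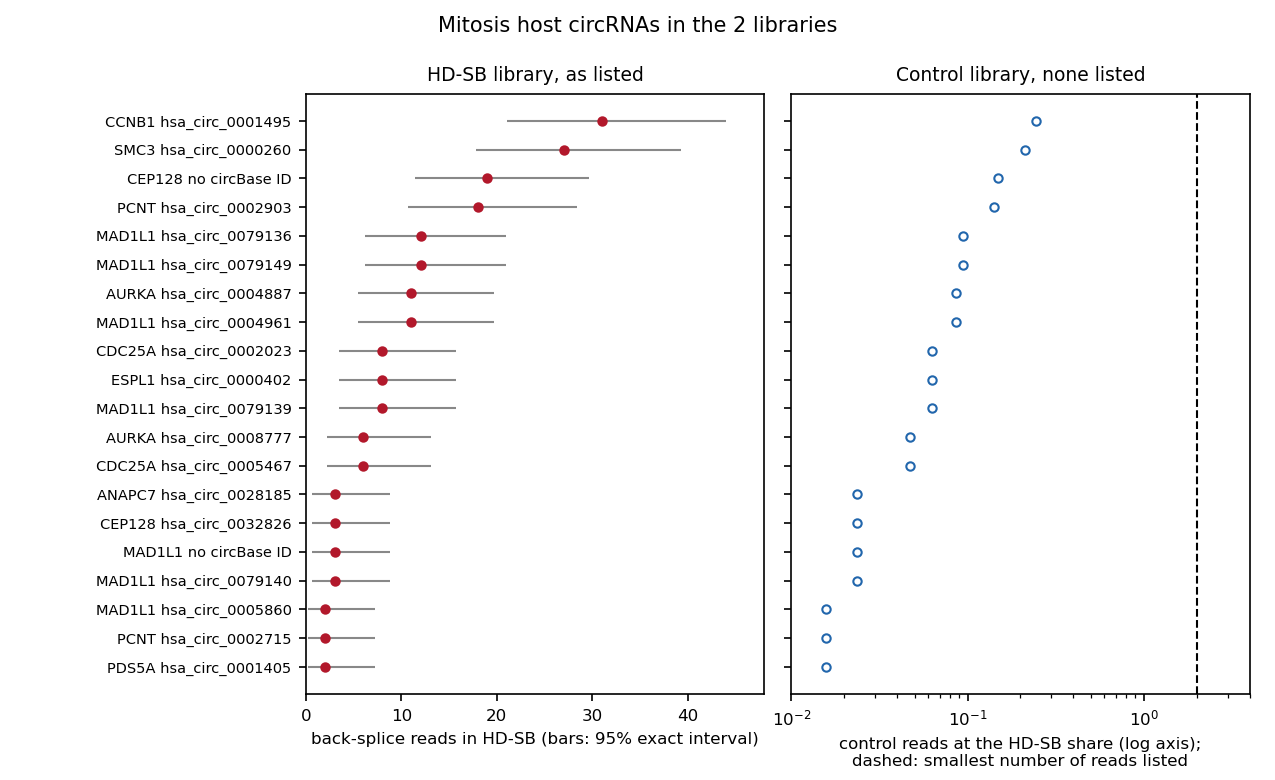
Left, back-splice reads of each of the 20 circRNAs in the HD-SB library (points) with 95% exact binomial intervals (bars), from 2 to 31 reads. Right, on a log axis, the reads that the control library would hold at the same share, from 0.0157 to 0.244. All lie below 2 reads, the smallest number listed (dashed line).

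Among the genes of mitotic entry, CCNB1 gave the most abundant circRNA of the group. CCNB1 encodes cyclin B1, and its circRNA hsa_circ_0001495 (chromosome 5, 68470704 to 68471364 in the table's coordinates) had 31 HD-SB reads. That is 2679 CPM, where CPM scales a library to 1000000 listed back-splice reads. It was not listed in the control. It held 0.268% of HD-SB reads (0.182 to 0.380) and stood at rank 32 of the library, and 25 of the 31 circRNAs above it were not listed in the control either. It joined exon 7 back to exon 6 of ENST00000256442.9, a transcript of 9 exons, and the circle of these 2 exons was 378 bases long. CDC25A, the phosphatase that removes inhibitory phosphates from cyclin-dependent kinases, gave a pair of circRNAs in HD-SB and none in the control. The shorter, hsa_circ_0002023 (chromosome 3, 48215774 to 48219478), had 8 reads or 691 CPM, and the longer, hsa_circ_0005467 (48209336 to 48219478), had 6 reads or 519 CPM. Both began at exon 7 of ENST00000302506.7, as the shared capitals in their junctions show, and ended at exon 9 (381 bases) or exon 10 (480 bases).

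AURKA encodes Aurora A, a kinase of centrosome maturation and spindle assembly. Its circRNA hsa_circ_0004887 (chromosome 20, 54956489 to 54959380) had 11 reads or 951 CPM in HD-SB, and hsa_circ_0008777 (54956489 to 54961589) had 6 reads or 519 CPM, with neither listed in the control. The mirror image of CDC25A was seen here, since both AURKA circles ended at exon 6 of ENST00000347343.6 and began at exon 4 (386 bases) or exon 3 (663 bases), which shows as the shared lower-case bases in their junctions. The leading circRNA held 64.7% of the AURKA reads (38.3 to 85.8) and 57.1% of the CDC25A reads (28.9 to 82.3). Both intervals included an equal split, so which form led could not be told at these read counts.

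MAD1L1 encodes MAD1, which brings MAD2 to unattached kinetochores and so starts the checkpoint signal. It gave 7 circRNAs, the most of any of the 1074 hosts that the table names alone. CircRNAs without exactly 1 host name were left out of this ranking, and MAD1L1 was chosen with its several circRNAs known. Its circRNAs held 51 HD-SB reads, 0.441% of the library (0.328 to 0.579), and 0 listed control reads. By summed HD-SB reads MAD1L1 stood at rank 24 of those 1074 hosts. No circRNA dominated: hsa_circ_0079136 (chromosome 7, 1937836 to 1976533) and hsa_circ_0079149 (2252847 to 2259091) had 12 reads or 1037 CPM each, and the share of either was 23.5% of the MAD1L1 reads (12.8 to 37.5). Next came hsa_circ_0004961 (2269619 to 2270362) with 11 reads or 951 CPM. It was followed by hsa_circ_0079139 (1976323 to 1997354) with 8 reads or 691 CPM. hsa_circ_0079140 (1997264 to 2041756) and a circRNA with no circBase identifier (1976323 to 2041756) had 3 reads or 259 CPM each, and hsa_circ_0005860 (2252847 to 2262389) had 2 reads or 173 CPM.

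The 6 MAD1L1 circRNAs that could be placed on exons fell into a pair of blocks of ENST00000406869.5, a MAD1L1 transcript of 19 exons. Exons 5 to 10 were covered by 2 circRNAs with 14 reads, 27.5% of the MAD1L1 reads (15.9 to 41.7). Exons 14 to 18 were covered by 4 circRNAs with 26 reads, 51.0% (36.6 to 65.2). None of these 6 held exons 11, 12 and 13, nor exons 1 to 4 or exon 19. Within the first block both circles ended at exon 10 and began at exon 6 (12 reads, 515 bases) or exon 5 (2 reads, 695 bases). In the second block the circles formed a chain: exons 14 to 16 (3 reads, 237 bases), 14 to 17 (3 reads, 448 bases), 16 to 17 (8 reads, 302 bases) and 17 to 18 (12 reads, 402 bases). Exon 17 took part in 3 of the 4, with 23 reads, the most of any exon. Exon 16 was the last exon of 1 circle and the first of another, and exon 17 was the last exon of 2 circles and the first of the circle that ended at exon 18. The circle from exon 14 to exon 17 and the circles inside it, 14 to 16 and 16 to 17, had 3, 3 and 8 reads, counts too low to rank. In hsa_circ_0004961 the lower coordinate lay at the 3′ end of exon 3 by its distance to the placed circles, while the upper one met no exon boundary of that transcript, so it was given no exons and no sequence.

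**Figure D2:**
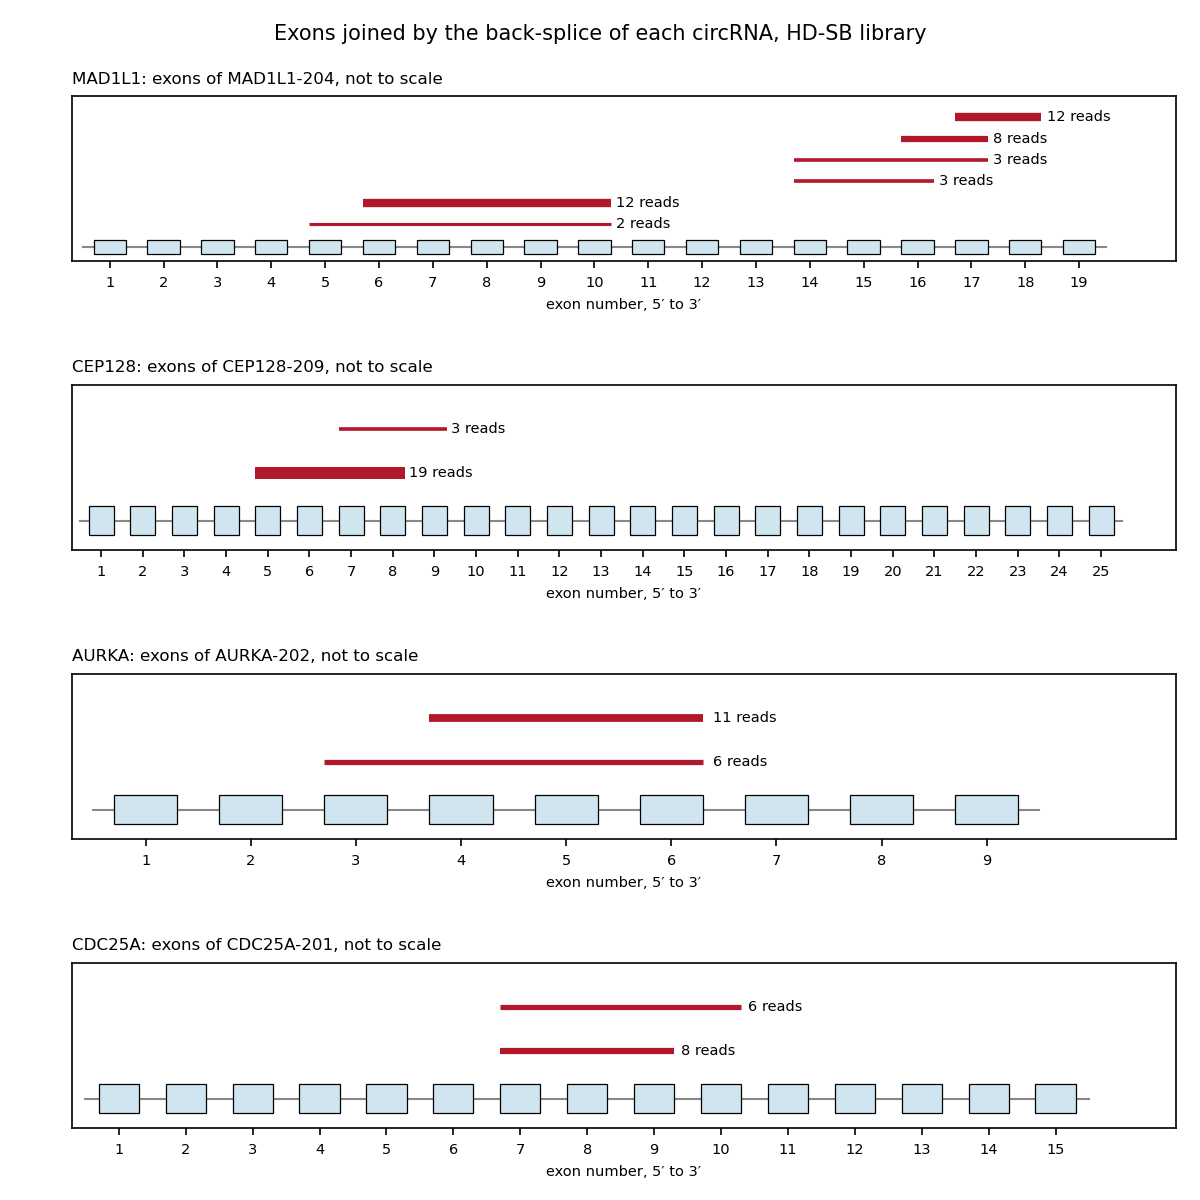
Exons (boxes, numbered 5′ to 3′ along the x axis, not to scale) of MAD1L1, CEP128, AURKA and CDC25A with each placed circRNA as a bar from its first to its last exon, bar width and label giving HD-SB reads. The MAD1L1 circles lie over exons 5 to 10 and 14 to 18, the AURKA circles share their last exon and the CDC25A circles their first. The unplaced MAD1L1 circRNA of 11 reads is not drawn.

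Cohesin and the machinery that cuts it were carried by single circles. SMC3, a core subunit of the cohesin ring, had hsa_circ_0000260 (chromosome 10, 112356156 to 112358048) with 27 reads or 2334 CPM in HD-SB, 0.233% of the library (0.154 to 0.339) and rank 41, and it was not listed in the control. It joined exon 20 to exon 19 of ENST00000361804.4 in a circle of 305 bases. PDS5A, which binds cohesin and regulates its release from chromatin, had 1 circRNA of 2 reads or 173 CPM (hsa_circ_0001405, chromosome 4, 39900009 to 39904080, exons 13 to 16 of ENST00000303538.12, 385 bases). ESPL1 encodes separase, the protease that cleaves cohesin at anaphase, and had hsa_circ_0000402 (chromosome 12, 53670404 to 53671011) with 8 reads or 691 CPM, from exons 8 and 9 of ENST00000257934.8 (385 bases). ANAPC7, a subunit of the ubiquitin ligase that frees separase from its inhibitor, had hsa_circ_0028185 (chromosome 12, 110819557 to 110820765) with 3 reads or 259 CPM, from exons 7 and 8 of ENST00000455511.7 (315 bases). None of these circRNAs was listed in the control.

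The centrosome genes each had 1 leading and 1 rare circle. CEP128, a protein of the centriole's subdistal appendages, had 19 HD-SB reads or 1642 CPM on a circRNA with no circBase identifier (chromosome 14, 81362062 to 81372425) and 3 reads or 259 CPM on hsa_circ_0032826 (81329101 to 81366373), with none listed in the control. The leading circle ran from exon 5 to exon 8 of ENST00000555265.5 and the rare one from exon 7 to exon 9, so that they overlapped without sharing an end. PCNT encodes pericentrin, a scaffold of the material around the centrioles, and had 18 reads or 1556 CPM on hsa_circ_0002903 (chromosome 21, 47768926 to 47769734) and 2 reads or 173 CPM on hsa_circ_0002715 (47801609 to 47805898), again with none in the control. These circles came from exons 7 and 8 and from exons 16 and 17 of ENST00000359568.9, with no exon in common. The leading circle held 86.4% of the CEP128 reads (65.1 to 97.1) and 90.0% of the PCNT reads (68.3 to 98.8), both above an equal split by counting error. Over the 205 hosts of the table with at least 2 circRNAs, the median share of the leading one was 64.7%.

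By summed HD-SB reads the 10 hosts ran from MAD1L1 (51) through CCNB1 (31), SMC3 (27), CEP128 (22), PCNT (20), AURKA (17), CDC25A (14), ESPL1 (8) and ANAPC7 (3) to PDS5A (2). A back-splice read counts 1 junction whatever the length of the circle, so these levels were not divided by length. Whether the length of a circle affected its recovery was not tested. Neighbours in this order had overlapping intervals throughout. MAD1L1 stood above CEP128 (0.190%, 0.119 to 0.288) and all hosts after it, with intervals that did not overlap. By the same measure CCNB1 and SMC3 stood above ESPL1 (0.0691%, 0.0299 to 0.136), ANAPC7 and PDS5A. CEP128, PCNT and AURKA stood above ANAPC7 and PDS5A, and CDC25A above PDS5A. The median circRNA of the group had 8 HD-SB reads, against 5 over the 1475 of the library, and 8 of 20 (40.0%) had at least 10 reads, against 17.0% of the library. The hosts were chosen with these values known, so these contrasts cannot be told apart from that choice. They describe 1 library and were not tested.

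**Figure D3:**
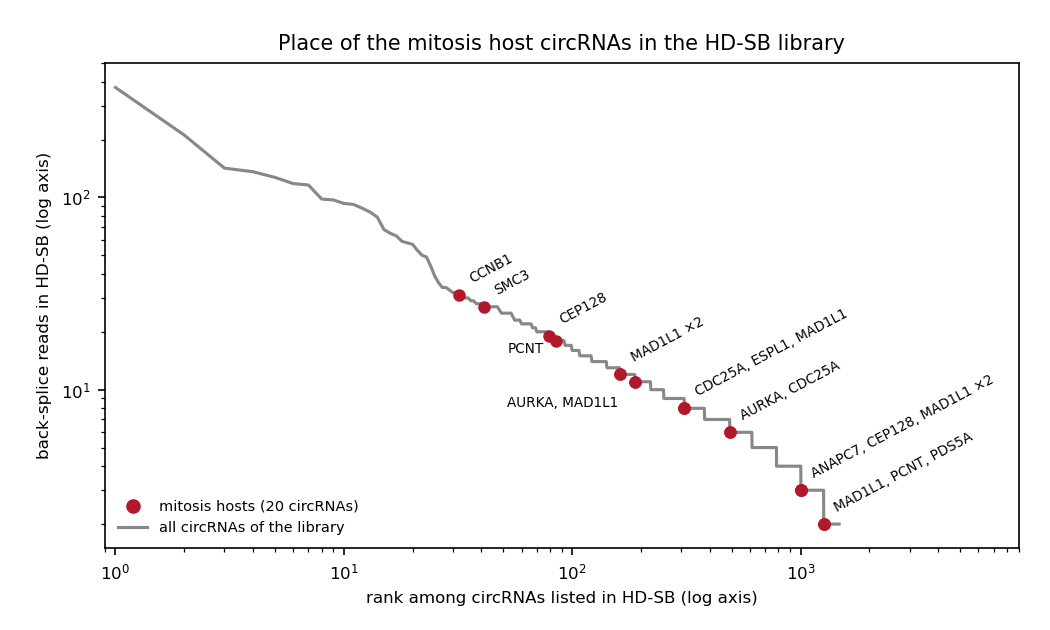
Back-splice reads of the circRNAs listed in HD-SB against their rank, both on log axes, with all 1475 as a line and the 20 mitosis host circRNAs as points named by host. CCNB1 stands at rank 32 with 31 reads, and 3 circRNAs sit at the minimum of 2 reads.

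Several features of the circles were set beside the library, although the hosts were chosen with earlier results of these data known. Of the 20, 18 carried a circBase identifier (90.0%), against 75.6% of the library. All 19 that could be placed held at least 2 exons, with a median of 3, and none began at exon 2. Among the 1220 HD-SB circRNAs with an exact exon match, 6.39% had 1 exon and 31.0% began at exon 2. All 19 lay wholly in coding sequence of the transcript used, against 80.4% of those 1220, and a circle made of UTR and coding exons was not among them. The spliced length ran from 237 to 695 bases with a median of 385, against 370.5 bases. The upper end depended on the transcript, since the MAD1L1 circle of exons 5 to 10 had up to 834 bases in another. In the transcripts used, the spliced length was a multiple of 3 in 10 of 19 (52.6%), against 37.2%. Circles of MAD1L1, AURKA and CDC25A share exons and boundaries, and are therefore not independent observations. Nor are the first exon of a circle and its coding content separate features.

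The span in the table's coordinates, introns included, ran from 608 bp for ESPL1 to 65434 bp for the MAD1L1 circle of exons 14 to 17, with a median of 4696 bp, against 4076 bp over the HD-SB library. Weighted by reads, the order turned, with a median of 1893 bp, against 2967 bp over the library. At least 10000 bp were spanned by 7 of 20 (35.0%), against 28.9%. Over the 19 placed circles, the intron before the first exon had a median length of 3118 bp. It ran from 467 bp for CCNB1 to 22733 bp for the MAD1L1 circle of exons 16 and 17. Over the 1215 HD-SB circRNAs with an exact exon match and such an intron, the median was 7320 bp. None of the 19 began at exon 2, against 31.0% of the 1220, so first introns entered the library median alone. Circles that begin at the same exon each count the same intron. The contrast was not tested, and the hosts were chosen with earlier results known. The intron after the last exon had a median of 7876 bp, against 6560 bp over 1217 HD-SB circRNAs with an exact exon match. It ran from 242 bp for ESPL1 to 81971 bp for the MAD1L1 circle of exons 17 and 18. GC content of the spliced circles ran from 39.3% in SMC3 to 66.6% in the MAD1L1 circle of exons 16 and 17, and the 6 placed MAD1L1 circles were all at 59.0% or above. The median GC content was 50.0%, against 49.8% over the 1220 HD-SB circRNAs with an exact exon match. Where a host had several circRNAs, 9 of 15 (60.0%) shared a start or end with another of the same host, against 51.2% over all such hosts.

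**Figure D4:**
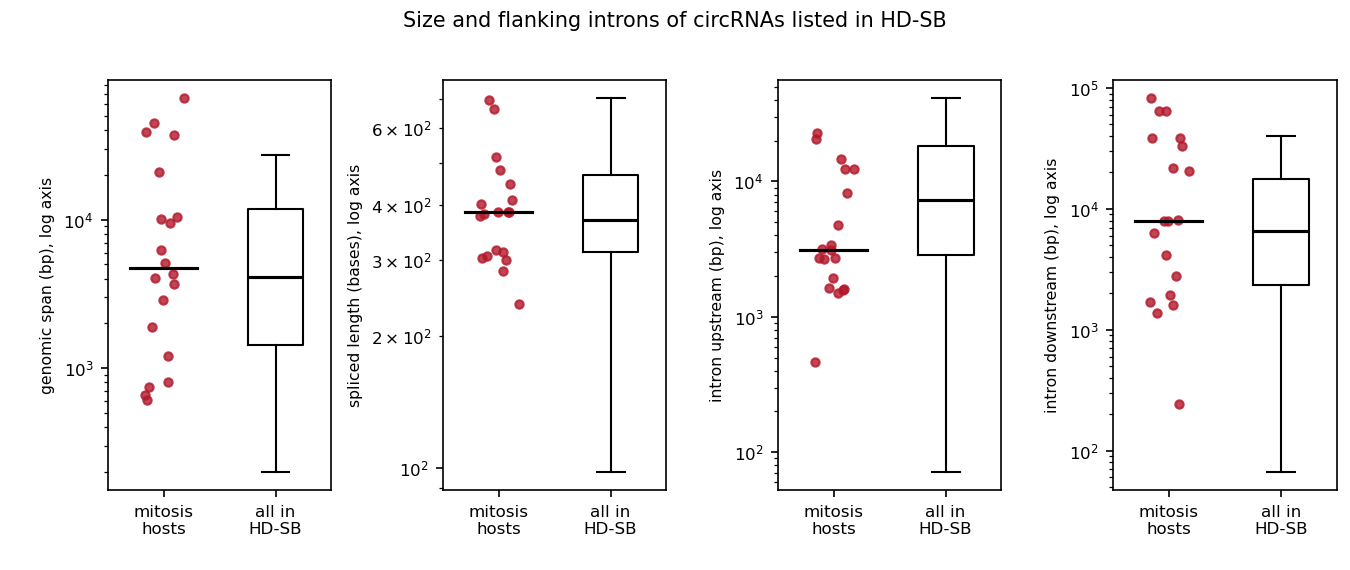
Genomic span, spliced length and the introns before and after the circle, all on log axes, for the mitosis host circRNAs (points, line at the median) and for circRNAs listed in HD-SB (box, quartiles with median; whiskers, values within 1.5 times the interquartile range). Except for span, the boxes hold only circRNAs with an exact exon match. The median intron upstream was 3118 bp in the mitosis hosts and 7320 bp in those circRNAs, and the other medians lay closer together. None of the placed mitosis host circles began at exon 2, against 31.0% of those circRNAs, and the contrast was not tested.

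The series names hsa-miR-204-5p, so the placed circles were searched for the letters that pair with its seed, bases 2 to 8, given here in capitals from RefSeq (GRCh38.p14).
hsa-miR-204-5p: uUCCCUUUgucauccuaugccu
The letters AAAGGGA occurred in 1 of the 19 placed circles, hsa_circ_0032826 of CEP128 with 3 HD-SB reads, and in 4.34% of the 1220 exon-matched circRNAs of HD-SB. Only the sense strand of the circle was searched, the back-splice junction included. The match begins at base 221 of the 282 bases of that circle and is shown in capitals.
CEP128 exons 7 to 9: gcgcacagAAAGGGAgctggtgg
A match of letters is a description of the sequence and does not show binding.

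Other genes of mitosis were placed beside these from 6 lists with 190 symbols in all. Of these, 33 were hosts in the table, with 48 circRNAs and 302 HD-SB reads, 2.61% of the library (2.33 to 2.92), and 0 listed control reads. At the HD-SB share the control would have held 2.38 of them. The 10 hosts described held 64.6% of the 302 reads and were chosen with these values known. In the checkpoint and kinetochore list KNTC1 (10 reads), CENPI (4 reads) and SKA3 (2 reads) joined MAD1L1, and none of the genes for MAD2, BUB1, BUBR1 or BUB3 had a listed circRNA. In the kinase, cyclin and phosphatase list NEK6 had 10 reads, MASTL 3 and NEK9 2, and the cohesin and condensin list added the condensin gene NCAPD2 with 4. ANAPC7 was the one host among 19 genes of the anaphase promoting complex. The centrosome list held 9 more hosts, led by CEP85 (10 reads), CEP72 (9 reads) and CEP70 (7 reads). The list of motors and spindle assembly held 7 hosts and 26 reads, led by CLASP2 and RACGAP1 with 7 each and CLASP1 with 4.

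**Figure D5:**
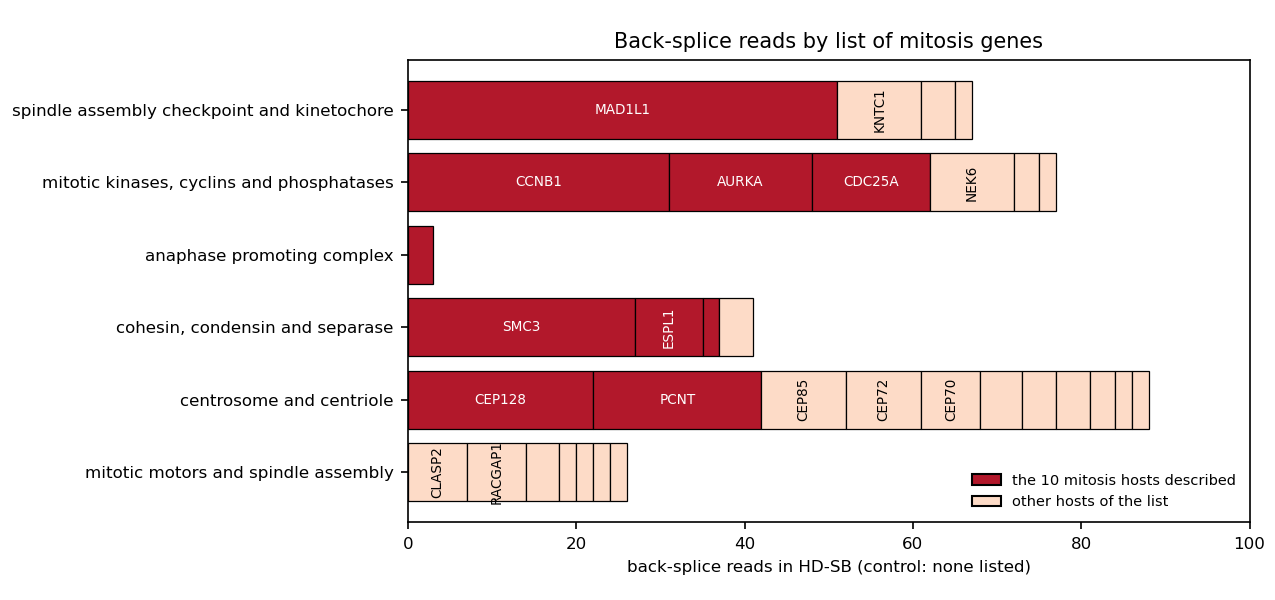
Back-splice reads in HD-SB by list of mitosis genes, each segment 1 host, dark for the 10 hosts described and light for the rest. The centrosome list reached 88 reads and the list of motors 26, with none listed in the control.

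HD-SB was set against control to ask which circRNAs change under the herbs. A ratio of CPM was taken with a pseudocount of 172.861 CPM, for circRNAs whose mean level over the libraries reached 216 CPM. Of the 20, 13 entered, each through its HD-SB level alone, and all 13 lay at least 2-fold above the control. The pseudocount equals the smallest listed HD-SB value, 2 reads, so this outcome was fixed for a circRNA listed in HD-SB alone. With 0.5 read added in each library instead, 0 of the 13 were higher and all 13 lay at least 2-fold below the control. Over the 797 circRNAs that entered, this setting put 4 higher and 772 lower, so the pseudocount sets the direction. With the first pseudocount 96.0% of the 797 circRNAs that entered were at least 2-fold above the control, since a circRNA present in HD-SB was compared with one absent from the control list. The 7 left out had 2 or 3 HD-SB reads each. By the exact interval of the ratio of read shares, 0 of the 20 were higher in HD-SB, against 0.00% of 1485. An interval above an equal share would have needed 471 HD-SB reads against 0 control reads and 711 against 1, and CCNB1, the highest here, had 31. With 0 control reads, up to 3.97% of the control library could still belong to a circRNA, and with 1 unlisted read up to 5.97%, which is above the 1.69% that the whole group held in HD-SB.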

How the data were processed

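Libraries of rRNA-depleted, RNase R-treated, fragmented and amplified total RNA of SW620 cells were made, per the labels' protocols. The submitters' processing notes name FastQC, HISAT2 2.1.0 and GRCh38, with no step stated for any of them. How circRNAs were called and filtered is not given in the sources used here, and amplification copies may be included. The deposited values are headed TPM but behave as CPM as deposited by the authors: each column summed to 1000000, and every listed value (100%) was a whole multiple, within 0.01, of 86.4 CPM in HD-SB and 10989 CPM in the control, whatever the length. Reads were recovered by these steps, and 0.001 was read as not listed. It was taken as 0 or 1 read, since the smallest listing was 2 reads. Because the filter is not given, this is an assumption.

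Of 1312 circRNAs with 1 host found in GENCODE 29, 80.3% did not lie inside that gene on GRCh38, so coordinates are printed as deposited, with no build. Exons were therefore assigned by span: a circRNA was placed where its span equalled, to the base, the distance between 1 pair of exon ends in a transcript of its host, which held for 1230 (93.8%), and for 0.991% when 7 bases were added to each span. This placed 17 of the 20. For MAD1L1, 2 more were placed by the distance of their ends to placed ends, where the annotated span was 1 base longer. Exons between the ends were taken as kept, in the transcript that fits most circRNAs of the host. Introns, UTRs and sequences follow from that transcript. Junction sequences of CEP128 are not reported here.

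Intervals are 95% Clopper-Pearson. Methods were tested on simulated data. Analyses used Python 3.11.15, SciPy 1.17.1 and pandas 2.3.3. All circRNAs of the 10 hosts are named, and of each gene list at most 3 other hosts with the most reads. The members and lists were chosen with earlier results of these data known.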

Additional observations from a re-analysis of the deposited data

How the results depend on the processing

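The 20 circRNAs of the mitosis hosts stayed 20 where a host had to be named alone, became 18 with a circBase identifier required and 13 with at least 5 HD-SB reads, which leaves out rare circles. Their share of HD-SB reads was 1.94% with the 10 most abundant circRNAs left out of the total, against 1.69%, through the smaller total. Of the 13 that lay at least 2-fold above the control, 8 did so when the pseudocount was 4 times larger. Over all 797 circRNAs that entered, 296 did so at that setting. Adding more CPM to both libraries brings their levels closer to equal, whatever the host. Without the filter all 20 lay at least 2-fold above the control, as did 1453 of all 1485 circRNAs. With 0.5 read added in each library 0 of the 13 were higher and all 13 were at least 2-fold lower. Over the 797, 4 were higher and 772 lower. The added 0.5 read stands for a higher CPM in the control, which listed fewer reads, so the direction of this ratio is set by the pseudocount. A smaller pseudocount, median-ratio scaling and a 4-fold threshold left 13. They were bound to, since the 13 had no control reads and a lowest log2 ratio of 2. Over the 797 circRNAs that entered, 765, 771 and 596 were higher in that order. With at least 5 reads per circRNA the leading circle held 100% of the reads of CEP128 and of PCNT, since 1 circle was left, and the MAD1L1 share was 27.9%. The median span was 1893 bp when weighted by reads. The median spliced length was 385 bases under each choice of transcript, alternatives added after the data were seen. No paired analysis was possible because there was 1 library in each group. With 91 control reads, a higher share in HD-SB could not be shown for any of the 20.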
